A study of Mus musculus with 12 samples.

Results

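Transcripts of basophils and eosinophils were followed through CD4+ T cell preparations of B6 and SLE123 mice that had or had not received the antibody anti-CD45RB. The set holds 10 genes, Mcpt8, Prss34, Fcer1a, Ms4a2, Cpa3, Hdc, Gata2 and Cd200r3, which mark basophils and in part mast cells, and Prg2 and Epx, which mark eosinophils, out of 35275 genes in the table. The genes were chosen by name and by measured values, because Mcpt8, Prss34 and Prg2 differed in opposite directions between treated and untreated mice of the 2 strains. Their levels and differences are therefore given as a description, with no test. In 6 of the 10 genes the mean level was lowest in untreated B6 mice, higher in treated B6 mice, higher again in treated SLE123 mice and highest in untreated SLE123 mice.

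Basophils are rare blood granulocytes that bind IgE through the high-affinity receptor FcεRI, and crosslinking of that receptor releases histamine, leukotrienes and the cytokine IL-4. Eosinophils are granulocytes that store basic proteins and a peroxidase in large granules and depend on IL-5. Both arise in the bone marrow from precursors that use GATA and C/EBP transcription factors, mast cells share the IgE receptor and several proteases with basophils, and none of these cells is a CD4+ T cell.

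Splenic CD4+ T cells had been isolated by negative magnetic selection from female mice of 9 to 12 weeks, and polyadenylated RNA was sequenced from 12 mice, 3 in each of 4 groups. The groups were untreated C57BL/6 (B6) mice, B6 mice given anti-CD45RB (clone MB23G2), untreated SLE123 mice and SLE123 mice given the same antibody. The antibody was injected 5 times between day 0 and day 7, at 100 ug each time. SLE123 mice are a lupus-prone line that carries 3 lupus susceptibility loci on the B6 background, so both strains share that background. The methods of the study describe a further separation by CD25, but the labels name no CD25 fraction, so the cells sequenced were taken as purified CD4+ T cells. The labels do not say whether any mice shared a litter or a preparation day.

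The libraries held between 13563646 and 23642846 assigned fragments. Levels are given as FPKM, which is fragments per kilobase of transcript, scaled to the assigned fragments of the library, so a count of 3 fragments on a transcript of 2000 bases corresponds to between 0.0634 and 0.111 FPKM in these libraries. Cd4 was present at 237 to 327 FPKM, and the summed level of 8 T cell markers lay between 1880 and 2400 FPKM, in all 12 mice. Liver transcripts set some libraries apart. Albumin (Alb) was present at 24.7 to 30.7 FPKM in 7 libraries, namely the 6 B6 mice and replicate 1 of the treated SLE123 mice, and was at most 0.0296 FPKM in the other 5. This split cannot be told apart from the strain in the comparison of untreated SLE123 with untreated B6 mice. The differences between SLE123 groups of the 10 genes, and the counts of list genes that use replicate 1 of the treated SLE123 mice, are also given without it.

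The 10 genes lie on 9 chromosomes of the mouse assembly GRCm38 and all code for proteins. Mcpt8 (chr14:56082166-56085273) and Prss34 (chr17:25298394-25300165) encode serine proteases of basophil granules. Fcer1a (chr1:173221284-173227214) and Ms4a2 (chr19:11615523-11623719) encode the alpha chain and the beta chain of FcεRI. Cpa3 (chr3:20215620-20242181) encodes a carboxypeptidase of mast cell and basophil granules, and Hdc (chr2:126593667-126619299) encodes histidine decarboxylase, which makes histamine. Gata2 (chr6:88193891-88207032) encodes a transcription factor of basophils, mast cells and blood progenitors, and Cd200r3 (chr16:44943678-44981380) encodes a surface receptor of basophils and mast cells. Prg2 (chr2:84980461-84983632) encodes major basic protein, and Epx (chr11:87864000-87875536) encodes eosinophil peroxidase. Fcer1a lies on distal chromosome 1, the chromosome of the lupus locus Sle1. The annotated gene of Mcpt8 also spans the microRNA gene Mir6949 and that of Cpa3 spans Mir7007. The Cd200r3 transcript holds a stretch of up to 307 bases that matches transcripts of 39 other genes at 95% identity or more, so its fragments were less certain than those of the other 9 genes.

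The promoters of 9 of the 10 genes, 10 windows in all because Gata2 had 2, were found in the RefSeq table for GRCm38.p6, and Prg2 had no entry. Each window runs from 250 bases before to 50 bases after the start of transcription. The windows were searched on both strands for AGATAA, the core site of GATA factors, and for TTGCNNAA, a site of C/EBP factors, since both families act in basophil and eosinophil precursors. AGATAA was found in 5 of the 9 genes, Prss34, Fcer1a, Ms4a2, Cpa3 and Cd200r3, and in 11.2% of the 32851 promoters of the table. TTGCNNAA was found in 2 of the 9, Fcer1a and Cd200r3, and in 10.8% of all promoters. A match is a stretch of letters and not a measured binding site. The windows of Prss34 (chr17:25298144-25298443, plus strand), Fcer1a (chr1:173227180-173227479, minus strand) and Ms4a2 (chr19:11623670-11623969, minus strand) are shown. They were picked because these genes encode a basophil protease and the alpha and beta chains of FcεRI, and because each window holds AGATAA. Capitals mark AGATAA, its reverse complement TTATCT and, in Fcer1a, the TTGCNNAA match TTGCCCAA.
Prss34: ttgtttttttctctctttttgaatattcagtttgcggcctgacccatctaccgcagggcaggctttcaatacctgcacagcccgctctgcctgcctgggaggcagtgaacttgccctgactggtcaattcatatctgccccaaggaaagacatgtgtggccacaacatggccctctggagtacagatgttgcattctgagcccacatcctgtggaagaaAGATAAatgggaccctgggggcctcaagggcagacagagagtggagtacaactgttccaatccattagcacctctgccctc
Fcer1a: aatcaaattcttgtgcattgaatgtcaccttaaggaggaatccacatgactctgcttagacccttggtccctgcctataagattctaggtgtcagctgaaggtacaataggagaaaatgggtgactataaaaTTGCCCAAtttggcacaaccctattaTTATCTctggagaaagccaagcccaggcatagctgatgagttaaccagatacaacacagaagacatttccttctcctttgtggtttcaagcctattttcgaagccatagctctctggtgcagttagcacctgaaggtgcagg
Ms4a2: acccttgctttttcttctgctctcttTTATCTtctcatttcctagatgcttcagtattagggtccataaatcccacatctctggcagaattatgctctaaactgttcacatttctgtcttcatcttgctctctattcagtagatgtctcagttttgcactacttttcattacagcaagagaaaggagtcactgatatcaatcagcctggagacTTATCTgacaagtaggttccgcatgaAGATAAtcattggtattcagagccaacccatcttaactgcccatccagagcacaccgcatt
The AGATAA match began 31 bases before the start of transcription in Prss34 and 92 bases before it in Fcer1a. Ms4a2 held 3 matches, which began 224, 37 and 11 bases before the start.

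The granule proteases of basophils were measured first. Mcpt8 was 0.363, 0.259 and 0.581 FPKM in the 3 untreated B6 mice and 5.09, 4.14 and 7.93 FPKM in the 3 treated B6 mice. It was 26.0, 30.9 and 27.3 FPKM in untreated SLE123 mice and 8.96, 7.08 and 10.2 FPKM in treated SLE123 mice. All treated B6 mice were above all untreated B6 mice, all treated SLE123 mice were below all untreated SLE123 mice, and the 2 treated groups overlapped. The mean of Mcpt8 was 14.3-fold higher in B6 mice given the antibody than in those without it, with a 95% interval of 8.94 to 25.5 from the pooled fragments, and 3.21-fold lower in SLE123 mice given it than in those without it, with an interval of 2.88 to 3.60. These intervals cover counting error only, and the untreated B6 mice had 4 to 8 fragments of Mcpt8 each.

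Prss34 was 0.561, 0.0909 and 0.358 FPKM in untreated B6 mice and 6.79, 4.32 and 12.7 FPKM in treated B6 mice. It was 55.9, 62.0 and 61.0 FPKM in untreated SLE123 mice and 18.8, 13.1 and 14.0 FPKM in treated SLE123 mice. No 2 neighbouring groups overlapped, and the ranking of the group means was the one seen for Mcpt8. The mean was 23.6-fold higher in treated B6 mice (interval 15.7 to 40.6), 3.90-fold lower in treated SLE123 mice (3.69 to 4.24) and 177-fold higher in untreated SLE123 than in untreated B6 mice (119 to 300). The 3 untreated B6 mice had 11, 2 and 7 fragments of Prss34, so the size of the folds over that group rests on few fragments.

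The alpha and beta chains of the IgE receptor were at lower levels. Fcer1a had only 2, 1 and 2 fragments in the untreated B6 mice, or 0.121, 0.0539 and 0.121 FPKM, against 2.23, 0.655 and 1.97 FPKM in treated B6 mice. It was 4.01, 5.53 and 3.67 FPKM in untreated SLE123 mice and 2.72, 2.38 and 1.97 FPKM in treated SLE123 mice. The treated mice were apart from the untreated ones in both strains, while the 2 treated groups overlapped. The mean was 16.4-fold higher in treated B6 mice, with a wide interval of 6.71 to 51.8, and 1.87-fold lower in treated SLE123 mice (1.50 to 2.31).

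Ms4a2 was 0.285, 0.0694 and 0.0520 FPKM in untreated B6 mice and 2.34, 0.945 and 2.36 FPKM in treated B6 mice. It was 3.26, 2.55 and 2.07 FPKM in untreated SLE123 mice and 1.71, 1.62 and 2.08 FPKM in treated SLE123 mice. The B6 groups did not overlap, but in SLE123 the highest treated mouse, at 2.08 FPKM, was above the lowest untreated mouse, at 2.07 FPKM. Ms4a2 was 13.9-fold higher in treated B6 mice (8.41 to 24.9) and 1.46-fold lower in treated SLE123 mice (1.20 to 1.68). Without replicate 3 of the untreated B6 mice, the highest of its group, the first fold was 31.0.

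Cpa3, the carboxypeptidase, differed by less than 2-fold with treatment in both strains. Its levels were 1.71, 1.94 and 1.88 FPKM in untreated B6 mice, 2.89, 2.36 and 4.01 FPKM in treated B6 mice, 7.13, 6.93 and 5.94 FPKM in untreated SLE123 mice and 4.25, 4.71 and 4.47 FPKM in treated SLE123 mice. All 4 groups were apart from each other. The mean was 1.67-fold higher in treated B6 mice (1.35 to 2.10) and 1.49-fold lower in treated SLE123 mice (1.28 to 1.68).

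Hdc and Gata2 were higher in treated B6 mice but overlapped between the 2 SLE123 groups. Hdc was 0.316, 0.269 and 0.289 FPKM in untreated B6 mice and 1.97, 1.34 and 1.59 FPKM in treated B6 mice, a 5.62-fold higher mean (4.26 to 7.35). In SLE123 mice it was 1.53, 1.44 and 1.25 FPKM without and 1.43, 0.963 and 0.953 FPKM with treatment, and these groups overlapped. Hdc thus reached its highest mean in treated B6 mice. Gata2 was 2.70, 1.60 and 2.66 FPKM in untreated and 6.55, 4.77 and 6.02 FPKM in treated B6 mice, a 2.49-fold higher mean (2.21 to 2.83). It was 3.85, 5.78 and 5.12 FPKM in untreated and 6.10, 4.86 and 6.01 FPKM in treated SLE123 mice, with overlap, and its mean was 1.15 times the untreated mean (1.04 to 1.24). Gata2 was the only one of the 10 genes whose mean in SLE123 mice was higher with the antibody than without it.

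Cd200r3 went against the other genes. It was 1.09, 1.06 and 1.33 FPKM in untreated and 1.54, 1.02 and 1.20 FPKM in treated B6 mice, which overlapped. It was 0.843, 0.773 and 0.436 FPKM in untreated and 0.628, 0.479 and 0.281 FPKM in treated SLE123 mice, which overlapped too. Every SLE123 mouse was below every B6 mouse, and the mean of untreated SLE123 mice was 1.69-fold lower than that of untreated B6 mice (1.42 to 2.17). The log2 difference between treated and untreated B6 mice was 0.06 ± 0.11 (SE, n = 3 per group), and its sign changed to -0.04 after quantile normalization, to -0.06 with the replicate number as a block and to -0.03 without replicate 1 of the treated B6 mice.

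Of the eosinophil genes, Prg2 was the more abundant. It was 1.48, 1.65 and 1.04 FPKM in untreated B6 mice and 2.55, 6.78 and 6.74 FPKM in treated B6 mice, and 36.0, 49.5 and 54.5 FPKM in untreated SLE123 mice and 8.58, 10.6 and 12.9 FPKM in treated SLE123 mice. The 4 groups did not overlap. Its mean was 3.86-fold higher in treated B6 mice (2.96 to 5.37), 4.35-fold lower in treated SLE123 mice (4.02 to 4.90) and 33.6-fold higher in untreated SLE123 than in untreated B6 mice (26.3 to 44.9). Basophils can also express Prg2, so Epx, which is more specific to eosinophils, was read beside it.

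Epx was 0.161, 0.0617 and 0.0462 FPKM in untreated B6 mice, from 7, 3 and 2 fragments, and 0.247, 0.636 and 0.619 FPKM in treated B6 mice. It was 3.96, 5.17 and 7.66 FPKM in untreated SLE123 mice and 1.17, 1.48 and 2.19 FPKM in treated SLE123 mice. The 4 groups were again apart. The mean was 5.58-fold higher in treated B6 mice (3.12 to 11.9), or 9.28-fold without replicate 3 of the untreated B6 mice, and 3.47-fold lower in treated SLE123 mice (3.11 to 4.17).

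**Figure D1:**
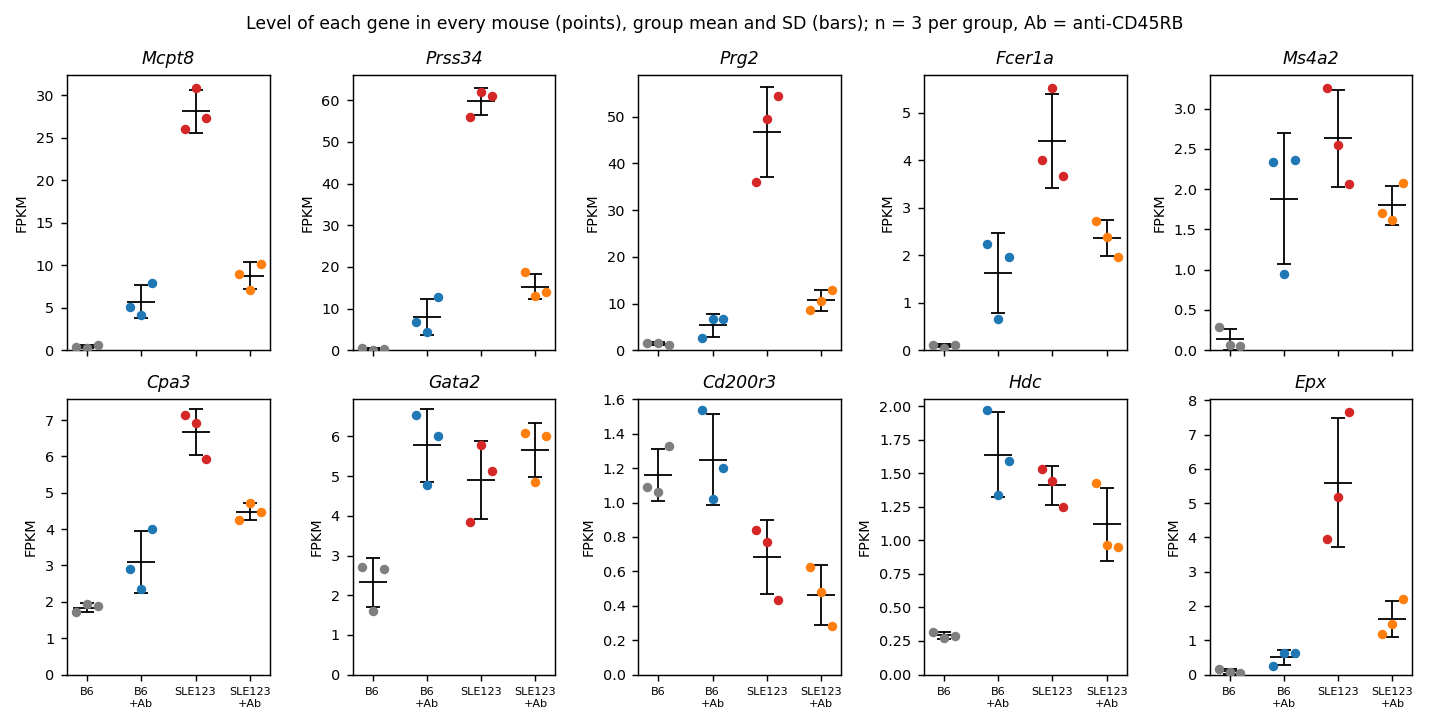
FPKM of each of the 10 genes (vertical axes, linear) in untreated B6, treated B6, untreated SLE123 and treated SLE123 mice; points are mice, and bars are the mean and SD of 3 mice. For Mcpt8, Prss34, Prg2, Fcer1a, Cpa3 and Epx the means ran from untreated B6 through treated B6 and treated SLE123 up to untreated SLE123, while Cd200r3 was lowest in the SLE123 groups.

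The order of the 4 group means was therefore the same in 6 of the 10 genes, Mcpt8, Prss34, Prg2, Fcer1a, Cpa3 and Epx. In Prss34, Prg2, Cpa3 and Epx no neighbours in that order overlapped, whereas treated B6 and treated SLE123 mice overlapped in Mcpt8 and Fcer1a. Untreated B6 mice were lowest in 9 of the 10, the exception being Cd200r3. How often all genes show this order or separation is not given, so these counts are a description only. The order shared by the 6 genes places the means of the 2 treated groups between those of the 2 untreated groups. The smaller gap between the treated means follows from that order and is not a further result. Mcpt8, for example, averaged 5.72 ± 1.97 FPKM in treated B6 and 8.75 ± 1.58 FPKM in treated SLE123 mice, against 0.401 ± 0.165 and 28.1 ± 2.49 FPKM in the untreated mice of the 2 strains (mean ± SD, n = 3 per group).

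On the log2(FPKM + 1) scale, on which 1 FPKM is added before the logarithm so that changes of low genes are understated, a limma model was fitted to the 13115 genes whose mean over the 12 mice reached 0.5 FPKM, and all 10 genes were among them. Between treated and untreated B6 mice the largest differences were those of Prss34 (2.65 ± 0.33, SE) and Mcpt8 (2.23 ± 0.21), and between treated and untreated SLE123 mice those of Prg2 (-2.02 ± 0.19), Prss34 (-1.91 ± 0.13) and Mcpt8 (-1.59 ± 0.13). Without replicate 1 of the treated SLE123 mice, the library with liver transcripts, the SLE123 differences were -1.88 for Prg2, -2.06 for Prss34 and -1.61 for Mcpt8, and those of the 10 genes changed by at most 0.15. The differences between the strains in response changed by at most 0.14. The 3 comparisons share untreated groups and are not independent of each other.

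**Figure D2:**
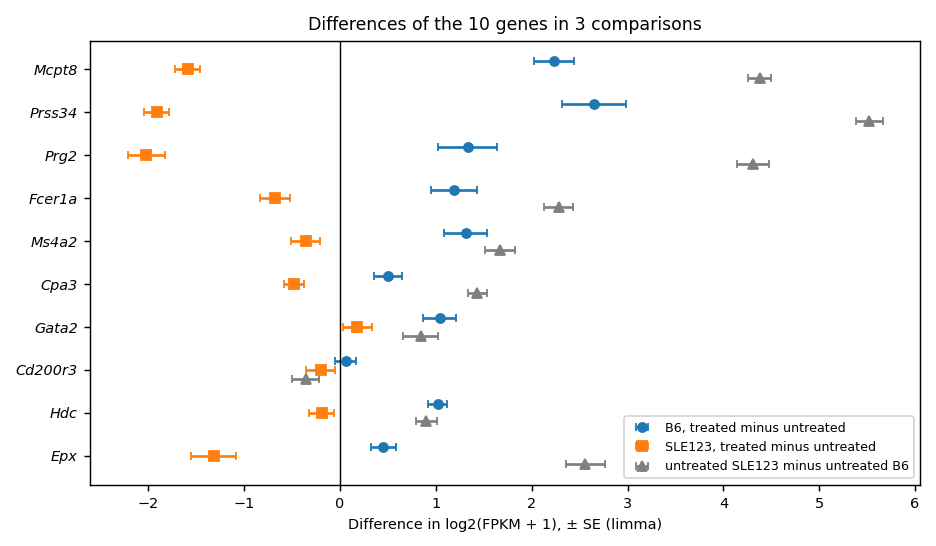
Difference in log2(FPKM + 1) ± SE (horizontal axis, limma) for each of the 10 genes between treated and untreated B6 mice (circles), treated and untreated SLE123 mice (squares) and untreated SLE123 and B6 mice (triangles). Prss34 was at 2.65 in B6 and -1.91 in SLE123, whereas Gata2 was at 1.04 and 0.18.

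Levels of pairs of genes were compared from mouse to mouse. Across the 12 mice the Pearson correlation of log2(FPKM + 1) was 0.995 between Mcpt8 and Prss34 and 0.98 between Prg2 and Epx. These values mostly restate the group differences that chose the genes, so the correlations of the deviations from the group means were also taken, and they were 0.807 and 0.78. Over the 28 pairs of the 8 basophil genes the values within groups ran from 0.018, for Cpa3 and Gata2, to 0.825, with a median of 0.554, and the value of Mcpt8 with Cd200r3 was 0.054. Over the 16 pairs of a basophil with an eosinophil gene they ran from -0.924 to 0.194, with a median of -0.285. Between Mcpt8 and Prg2 the value within groups was only 0.161, and between Prss34 and Prg2 it was -0.007, against 0.949 and 0.946 across all mice. Within groups, Cd200r3 ran with Hdc (0.825) and against Epx (-0.924). Each value is a description over 12 mice whose points share their libraries, and levels below 1 FPKM rest on few fragments.

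Ratios of FPKM were also taken within each mouse. Prss34 was between 1.04 and 2.24 times Mcpt8 in the 9 mice outside the untreated B6 group and between 0.352 and 1.55 times in that group. Prg2 was 9.17 to 26.7 times Epx in untreated B6 mice, 10.3 to 10.9 times Epx in treated B6 mice, 7.12 to 9.56 times in untreated SLE123 mice and 5.91 to 7.33 times in treated SLE123 mice. Gata2 did not keep a ratio to Mcpt8, at 4.58 to 7.44 times Mcpt8 in untreated B6 mice, 0.759 to 1.29 times in treated B6 mice, 0.589 to 0.687 times in treated SLE123 mice and 0.148 to 0.187 times in untreated SLE123 mice. Cpa3 likewise went from 3.24 to 7.51 times Mcpt8 in untreated B6 mice to 0.218 to 0.274 times in untreated SLE123 mice.

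**Figure D3:**
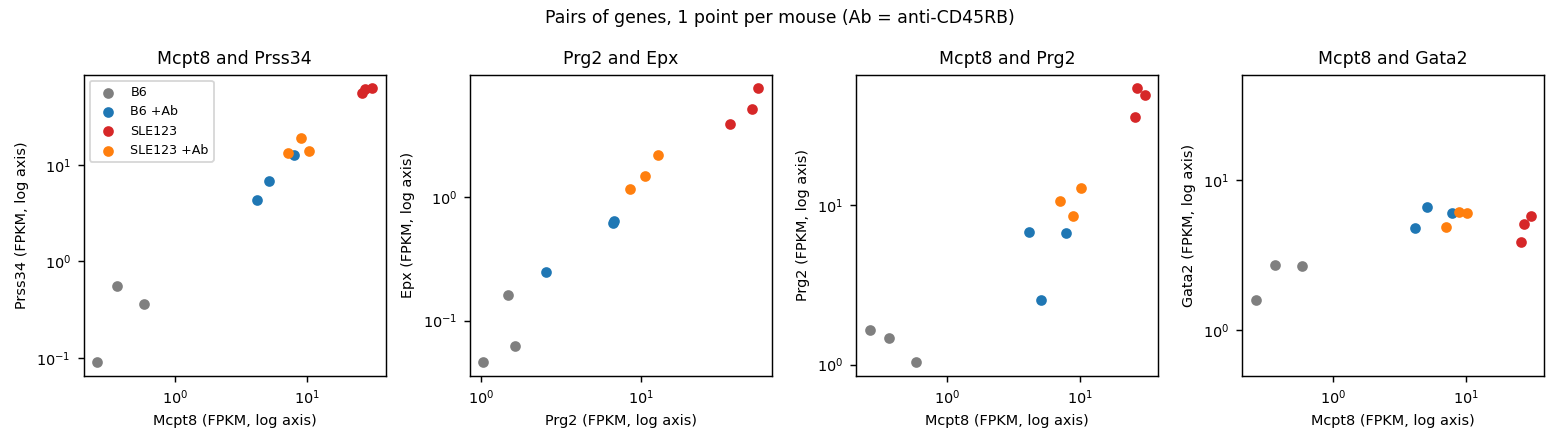
FPKM of 4 pairs of genes on log axes, 1 point per mouse, coloured by group. Mcpt8 with Prss34 and Prg2 with Epx rise together across the groups, with more scatter in untreated B6 mice, while Gata2 stays between 1.60 and 6.55 FPKM as Mcpt8 goes from 0.259 to 30.9 FPKM.

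The genes outside the set with the profile most like that of Mcpt8 over the 12 mice were Hk3 (r = 0.985), Clec12a (0.975), Metrnl (0.97), Cldnd1 (0.968) and Cd63 (0.965). Hk3 encodes a hexokinase of myeloid cells and Clec12a a receptor of myeloid cells. Hk3 averaged 0.469 ± 0.0593 FPKM in untreated B6, 1.72 ± 0.496 in treated B6, 3.89 ± 0.586 in untreated SLE123 and 2.35 ± 0.183 in treated SLE123 mice. The genes most like Prg2 were Ighe (0.964), Rogdi (0.962), Elane (0.961), Rps4l (0.961) and Tmed3 (0.959). Ighe, the constant region of the IgE heavy chain, averaged 0.0152 ± 0.0263 FPKM in untreated B6, 1.50 ± 0.82 in treated B6, 10.6 ± 0.883 in untreated SLE123 and 2.59 ± 1.40 in treated SLE123 mice. Elane, the elastase of developing neutrophils, averaged 1.84 ± 0.61, 6.77 ± 3.35, 43.1 ± 14.0 and 20.2 ± 2.92 FPKM in the same order of groups (mean ± SD, n = 3 each).

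Other genes of the same lineages lay outside the 10 selected, although the lists too were drawn up with earlier results of these data known. Lists with 42 genes were used, 21 for basophils, 9 for eosinophils and 12 for mast cells, of which 28 (18, 5 and 5) passed the filter on low levels. In treated B6 mice 15 of the 28 rose at an adjusted p under 0.05 (limma, Benjamini-Hochberg over 13115 genes), against 14.9% of all genes, or 8.74% with higher levels. No list gene fell in that fit, while with voom 15 rose and 1 fell and after quantile normalization 10 rose and 1 fell, in both cases Hpgds, a prostaglandin D2 synthase. Of the 15, Itga2 reached the filter on low levels only through the treated B6 mice. The count over all genes was 1948, and it went to 1109, 844, 848 and 675 without replicate 3 or 5 of the treated or replicate 3 or 4 of the untreated B6 mice. The median difference of the 28 was 0.41 on the log2(FPKM + 1) scale, and that of all genes tested was 0.00. Leaving out replicate 4 of the untreated B6 mice reduced the 15 to 8, and 8 of the 15 passed whichever mouse was left out.

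The genes that rose in B6 included a chain of the IgE receptor and 2 genes of leukotriene synthesis. Fcer1g, the signalling chain that FcεRI shares with other Fc receptors, rose from 2.50 ± 0.875 to 16.1 ± 3.28 FPKM (mean ± SD, n = 3 each; log2 difference 2.30 ± 0.20 SE; limma adjusted p = 0.00155). Alox5ap, which presents arachidonic acid to 5-lipoxygenase, rose from 2.69 ± 0.441 to 15.0 ± 1.88 FPKM (2.11 ± 0.12; limma adjusted p = 0.000389), and Alox5, the lipoxygenase itself, rose from 0.136 ± 0.0513 to 0.997 ± 0.323 FPKM (0.80 ± 0.13; limma adjusted p = 0.0122). Ltc4s, the leukotriene C4 synthase, was not tested and had 0 fragments in the treated B6 mice. Cd63, a granule membrane protein used as a marker of basophil degranulation, rose 6.80-fold. The cytokine receptor chains Csf2rb and Csf2rb2, through which IL-3 signals, rose 10.5-fold and 10.9-fold, and Il1rl1, the IL-33 receptor, rose 2.37-fold. The steroid enzyme Cyp11a1 rose 15.9-fold, the membrane proteins Ifitm1 and Cd9 3.31-fold and 1.44-fold, and the integrin Itga2 1.88-fold. Il5ra, the IL-5 receptor, rose from 0.0850 ± 0.0759 to 0.431 ± 0.119 FPKM, and the eosinophil ribonuclease Ear2 from 0.0576 ± 0.0998 to 0.521 ± 0.218 FPKM. From the mast cell list, there rose the protease Mcpt1 (3.23-fold) and the monoamine transporter Slc18a2 (1.64-fold). The calls of Itga2, Ear2, Il5ra, Mcpt1 and Slc18a2 were lost on leaving out any of 5 or more of the 6 mice, and those of Il1rl1 and Alox5 on leaving out replicate 4 of the untreated mice, with adjusted p of 0.0557 and 0.0543 (limma). Many of these genes, among them Fcer1g, Alox5ap and Csf2rb, are also expressed by monocytes and neutrophils.

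In SLE123 mice none of the 28 list genes passed an adjusted p under 0.05 by limma or by voom on the recovered fragments, with or without replicate 1 of the treated mice in limma, where 0.0381% of all genes, or 5 genes, passed. At an unadjusted p under 0.05 there were 10 list genes, 7 lower and 3 higher in treated mice, where 10.4% of all genes had such a p, 427 lower and 942 higher. The 3 were Mcpt1 (log2 difference 0.60 ± 0.22 SE), Il1rl1 (0.31 ± 0.12) and Runx1 (0.25 ± 0.09). The 7 were Alox5ap (log2 difference -1.08 ± 0.13 SE), Prg3 (-1.15 ± 0.14), Ear6 (-1.77 ± 0.22), Ear2 (-1.89 ± 0.27), Cd63 (-0.76 ± 0.17), Ear1 (-1.36 ± 0.37) and Fcer1g (-0.86 ± 0.26), and their adjusted p by limma ran from 0.0894 to 0.452. Prg3, Ear1, Ear2, Ear6, Il5ra and Mcpt4 reached the filter on low levels only through the untreated SLE123 mice, so lower levels in the other groups were favoured by the filter, as were higher levels of Mcpt1 in treated SLE123 mice. Prg3, a second major basic protein, was 2.03 ± 0.524 FPKM in untreated and 0.350 ± 0.0395 FPKM in treated SLE123 mice, and Ear6 was 3.89 ± 1.44 and 0.409 ± 0.24 FPKM (mean ± SD, n = 3 each). Neither gene overlapped between the groups. Rescaling to TPM brought Prg3, Ear6 and Ear2 under the threshold (adjusted p = 0.0184, 0.00743 and 0.00743 by limma), and leaving out replicate 3 of the untreated SLE123 mice brought Ear2 there (adjusted p = 0.0185 by limma). Without that mouse 7 genes passed in all and without replicate 2 or 3 of the treated or replicate 1 or 2 of the untreated SLE123 mice 1 passed, against 5.

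Untreated SLE123 mice had higher levels than untreated B6 mice in 22 of the 28 list genes and lower levels in 2, by limma at an adjusted p under 0.05, against a background of 42.9%, or 22.8% with higher levels in SLE123. Of the 6 list genes that reached the filter only through untreated SLE123 mice 5 were higher, and of the other 22 list genes 17 were higher and 2 lower. With no filter 22 list genes were higher and 1 was lower. Among all genes 2990 were higher and 2631 lower, but rescaling to TPM gave 1914 higher and 5974 lower, with a shift of -0.379 in the median of all genes, and quantile normalization gave 2401 and 4523 with a shift of -0.155. Under TPM 20 list genes were higher and 2 lower, and the difference of Cd9 turned from 0.35 to -0.02. Without replicate 3 or replicate 4 of the untreated B6 mice 3710 and 3672 genes passed in all, and 19 of the 24 list calls held whichever mouse was left out.

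Ear2 and Ear6 were at 5.18 ± 2.75 and 3.89 ± 1.44 FPKM in untreated SLE123 mice but had 2 fragments each in the whole untreated B6 group, and Ear1 was at 3.04 ± 1.73 FPKM against 4 fragments. Ear1 and Ear2 are 96.374% identical over their transcripts, so fragments may have been split between them. Prg3 was 19.5-fold higher in untreated SLE123 mice, Cd63 12.8-fold, Csf2rb 17.5-fold, Csf2rb2 6.47-fold, Alox5ap 4.97-fold, Alox5 6.21-fold, Fcer1g 3.77-fold and Cyp11a1 7.89-fold. Replicate 3 of the untreated SLE123 mice raised some of these means. It had 10.5 FPKM of Csf2rb against 3.70 and 4.78, 1.62 of Csf2rb2 against 0.866 and 0.638, and 14.4 of Fcer1g against 6.46 and 7.38. The calls of these 3 genes held whichever mouse was left out. Cebpa, a transcription factor of granulocyte precursors, was at 2.48 ± 0.662 FPKM in untreated B6 and 22.0 ± 1.13 FPKM in untreated SLE123 mice, an 8.85-fold difference, and its treatment differences, 0.35 ± 0.22 in B6 and -0.22 ± 0.12 in SLE123 on the log2 scale, did not pass the test (limma adjusted p = 0.308 and 0.491). Il4 and Il3ra, the IL-3 receptor alpha chain, were 2.37-fold and 2.27-fold higher in untreated SLE123 mice, Il1rl1 2.73-fold and Crlf2, a chain of the TSLP receptor, 1.41-fold. Il4, Crlf2, Cd9, Runx1, Itga2 and Il1rl1 are also made by T cells. Ifitm1 was at 1.86 ± 0.275 FPKM in untreated B6 and 170 ± 8.18 FPKM in untreated SLE123 mice, a 91.5-fold difference (limma adjusted p = 1.82e-07). The 2 genes that were lower in SLE123 were Itga2 (3.54-fold) and Runx1 (1.24-fold). On leaving out 1 mouse the call of Runx1 was lost in 5 of 6 fits, that of Slc18a2 in 5 and those of Itga2 and Crlf2 in 3 each, with limma adjusted p up to 0.135, 0.148, 0.0979 and 0.0985, and those of Crlf2 and Slc18a2 were also lost after rescaling to TPM.

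The difference between the strains in their response was also fitted with all 12 mice for the list genes. These lists were drawn up with earlier results of these data known, so the count is not independent of them. Of the 28 genes, 12 passed at an adjusted p under 0.05, all with a lower change in SLE123. Among all genes 3.64% passed, or 2.38% in that direction. Without replicate 1 of the treated SLE123 mice 11 passed. The 12 genes that passed with all mice were 9 basophil genes and the 3 eosinophil genes Prg3, Ear2 and Ear6. These 3 reached the filter only through untreated SLE123 mice, and of the 22 list genes that did not need that group to reach the filter 9 passed. None was from the mast cell list, where voom also found 0 of 5 and 1 had an unadjusted p under 0.05. The largest differences of differences were those of Alox5ap (-3.19 ± 0.18 SE; limma adjusted p = 2.87e-05), Fcer1g (-3.16 ± 0.37; limma adjusted p = 0.00178), Cd63 (-2.62 ± 0.28; limma adjusted p = 0.000932), Ear2 (-2.41 ± 0.33; limma adjusted p = 0.00364) and Csf2rb (-2.31 ± 0.38; limma adjusted p = 0.00889). Ear6 (-2.03 ± 0.26), Csf2rb2 (-1.37 ± 0.27), Cyp11a1 (-1.36 ± 0.22), Prg3 (-1.31 ± 0.19), Ifitm1 (-1.16 ± 0.10), Alox5 (-0.94 ± 0.19) and Cd9 (-0.49 ± 0.06) completed the 12. The calls of Alox5 and Csf2rb2 were lost in 6 and 4 of the 12 fits that left out 1 mouse, with adjusted p up to 0.0699 and 0.0628 (limma), and that of Cd9 was lost after rescaling to TPM. The count over all genes was 478 and went to between 205 and 306 without any 1 of the B6 or treated SLE123 mice and to 2917 without replicate 1 of the untreated SLE123 mice, while the list count stayed between 10 and 15.

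**Figure D4:**
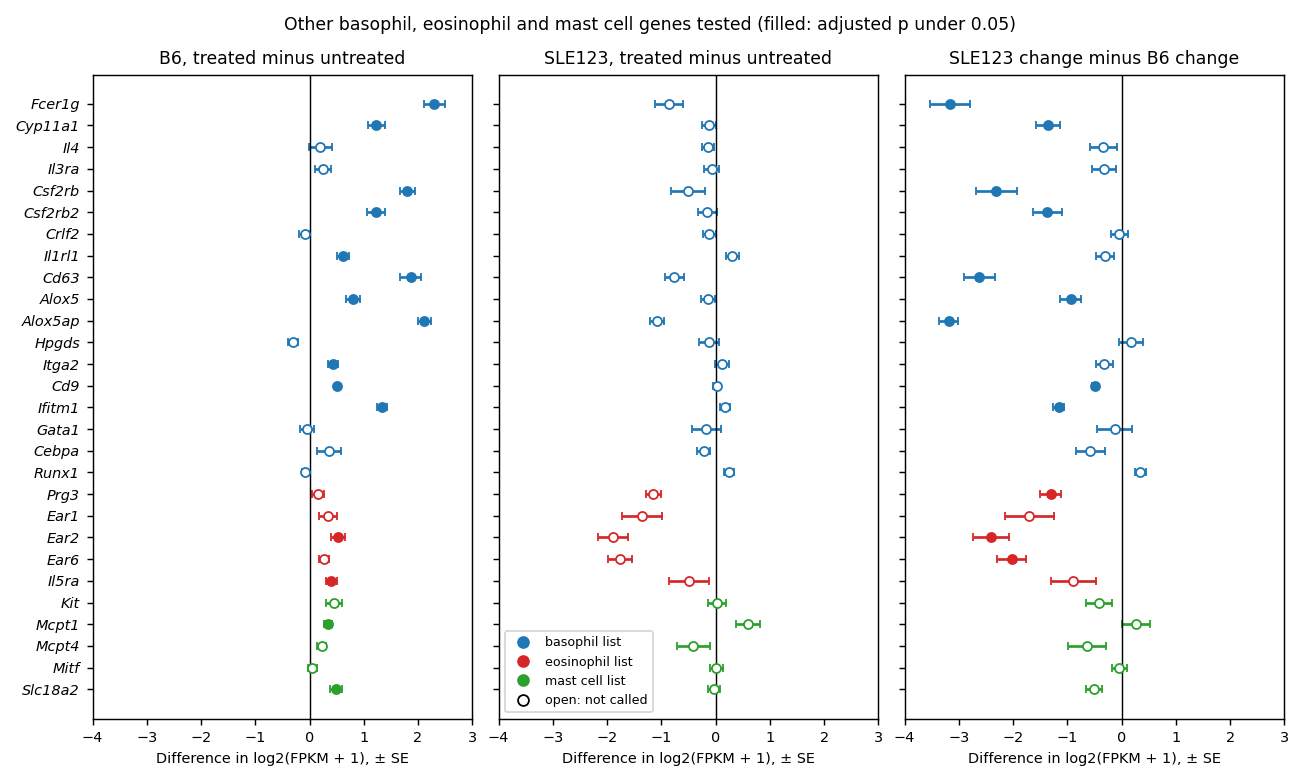
Difference in log2(FPKM + 1) ± SE (horizontal axes) of the 28 other lineage genes tested, in B6 treatment, SLE123 treatment and the difference between these; filled circles passed an adjusted p under 0.05 in limma. In B6 15 were filled, in SLE123 none, and in the difference 12, all on the negative side.

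Several defining genes of mast cells were at or near 0, while other mast cell proteases were present mainly in SLE123 mice, and 12 of 12 list genes were in the table. Tpsab1, a tryptase, had 0 fragments in the B6 and treated SLE123 groups and 2 in the untreated SLE123 group. The receptor Mrgprb2 had fragments in untreated SLE123 mice only, 5 in all, and Tpsg1 had at most 2 in any group. The tryptase Tpsb2 was at most 0.391 FPKM and the chymase Cma1 at most 0.892 FPKM in any mouse. The protease Mcpt1 was 0.658 to 0.937 FPKM in untreated and 1.21 to 2.92 FPKM in treated SLE123 mice, against at most 0.502 FPKM in B6 mice. Mcpt2 was 0.305 to 0.820 FPKM in SLE123 mice and had 1 fragment in all B6 mice. Most of the summed mast cell level came from Kit, the stem cell factor receptor, and Slc18a2. Kit averaged 3.21 ± 0.599 FPKM in untreated B6, 4.76 ± 1.01 in treated B6, 6.40 ± 1.29 in untreated SLE123 and 6.57 ± 1.25 in treated SLE123 mice, and of the 3 comparisons that between the untreated strains passed the test (limma adjusted p = 0.00606). Mcpt4 was 1.16, 3.08 and 0.726 FPKM in untreated SLE123 mice and at most 0.125 FPKM in untreated B6 mice, a 20.4-fold difference of the means that went to 11.6-fold without replicate 2 of the untreated SLE123 mice. Its call was lost without replicate 4 of the untreated B6 mice (limma adjusted p = 0.0516).

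The 14 list genes not tested had means below the filter. Among them Alox15, a lipoxygenase of eosinophils and macrophages, averaged 0.0258 ± 0.0258 FPKM in untreated B6, 0.987 ± 0.411 in treated B6, 0.582 ± 0.258 in untreated SLE123 and 0.243 ± 0.132 in treated SLE123 mice. The eosinophil receptors Ccr3 and Siglecf were low throughout. Ccr3 averaged 0.0120, 0.124, 0.766 and 0.164 FPKM in the same order, and one untreated SLE123 mouse had 1.68 FPKM. Siglecf averaged 0.144 ± 0.0423, 0.441 ± 0.0854, 0.231 ± 0.084 and 0.305 ± 0.0378 FPKM, so it did not follow Prg2 and Epx in the SLE123 mice. These 3 genes, Ltc4s, Hpgds and the mast cell genes Tpsab1, Tpsb2, Tpsg1, Mrgprb2, Cma1 and Mcpt2 were chosen after their values were seen.

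Markers of other cell types moved with the basophil and eosinophil genes. The summed FPKM of the 8 basophil genes was 5.34 to 7.28 in untreated B6, 19.6 to 37.7 in treated B6, 103 to 116 in untreated SLE123 and 35.2 to 44.6 in treated SLE123 mice, and that of Prg2 and Epx was 1.08 to 1.71, 2.80 to 7.42, 40.0 to 62.2 and 9.75 to 15.1. Over the same groups 8 neutrophil markers, all detected, summed to 3.91 to 6.98, 17.6 to 38.6, 90.6 to 138 and 63.5 to 78.5 FPKM. The 6 B cell markers summed to 3.92 to 5.17, 24.2 to 32.3, 62.2 to 233 and 36.0 to 59.9 FPKM, and the 5 plasma cell markers to 34.0 to 53.5, 64.0 to 161, 1810 to 4720 and 950 to 1740 FPKM. These lists ranked the groups as Mcpt8 did. The 6 erythroid markers, at 0.706 to 2.16, 3.65 to 11.7, 29.2 to 45.9 and 2.71 to 15.0 FPKM, were also highest in untreated SLE123 mice.

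The match was not complete. The 6 monocyte and macrophage markers summed to 8.34 to 14.4, 39.0 to 113, 31.4 to 74.2 and 17.9 to 24.1 FPKM, so treated B6 and untreated SLE123 mice overlapped. Dendritic cell (4 genes) and platelet markers (4 genes) reached their highest sums, 6.88 and 20.6 FPKM, in treated B6 mice, and NK markers (3 genes) were at 23.5 to 32.7 FPKM there against 3.69 to 6.32 in untreated SLE123 mice. The 2 CD8 T cell markers summed to 11.1 to 13.0, 12.7 to 19.4, 4.23 to 5.76 and 5.74 to 7.69 FPKM. Replicate 3 of the untreated SLE123 mice had the highest B cell and plasma cell sums and the lowest T cell sum, 1880 FPKM. Its basophil sum of 107 FPKM lay between those of the other 2 mice of its group. Its sum of Prg2 and Epx, 62.2 FPKM, was the highest of the group, against 40.0 and 54.7 FPKM. Liver markers, at 39.0 to 45.8 FPKM, did not separate treated from untreated B6 mice. The part of these other cells in the results was not tested. In such bulk samples fewer cells of a type and less RNA per cell cannot be told apart.

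**Figure D5:**
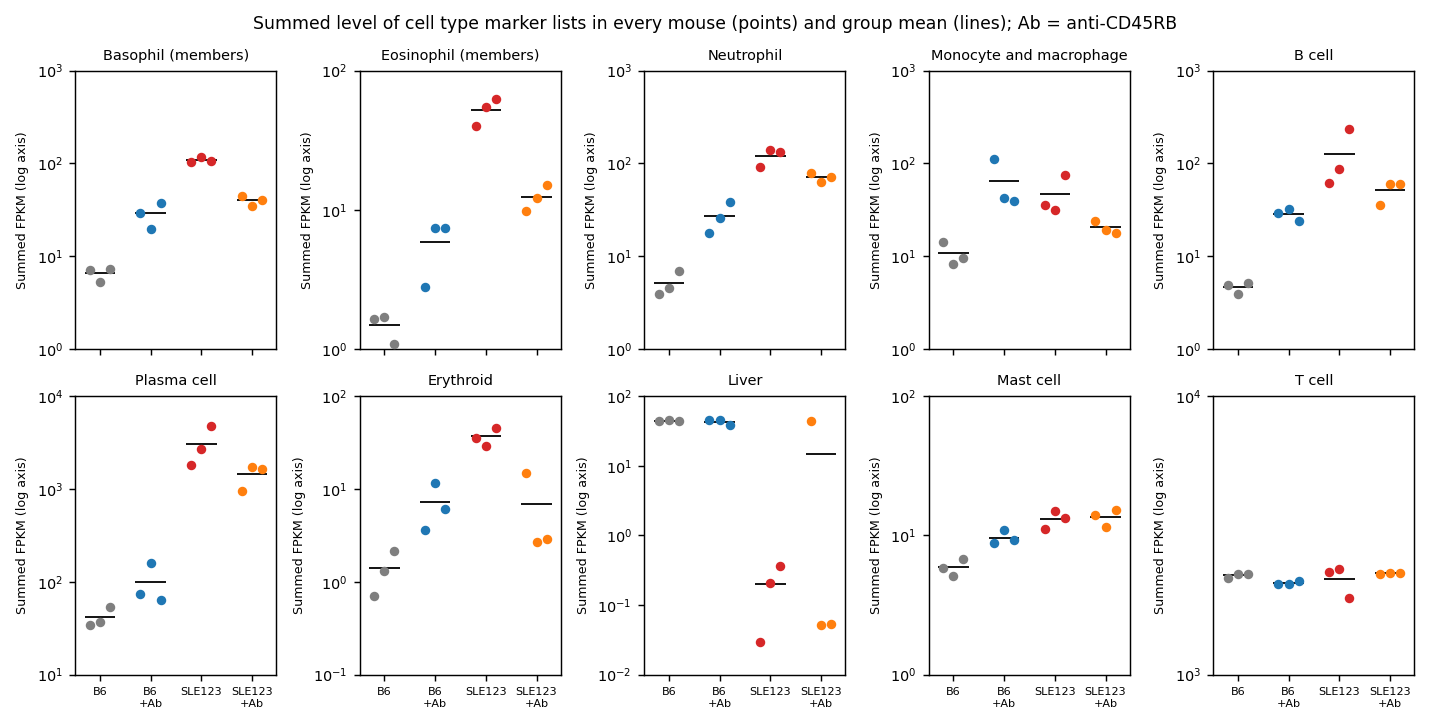
Summed FPKM (log axes) of marker lists for each mouse (points) and group mean (lines), for the basophil and eosinophil genes and for lists of other cell types. Neutrophil, B cell and plasma cell sums ranked the groups as the basophil genes did, T cell sums stayed between 1880 and 2400 FPKM, and liver sums were at 39.0 to 45.8 FPKM in B6 mice and 43.7 FPKM in 1 treated SLE123 mouse.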

How the data were processed

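RNA-Seq was read from 12 female mice, 3 per group. According to the labels' processing notes, reads were made with CASAVA 1.8 and aligned with STAR to mm10. The counting program, annotation, strand setting and counting of shared reads are not given in the sources used here. The authors deposited FPKM per gene in 1 table of 12 columns, each named as a sample, with no pooled columns. The values of all 23230 genes above 0 were whole multiples of 1 fragment within 0.01 fragment, so fragments were recovered, giving 13563646 to 23642846 per library. For 98.75% of these genes the recovered length was whole within 0.01 base.

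Gene symbols were available for 34490 of 35275 identifiers. Tests used limma 3.58.1 in R 4.3.3 (lmFit and eBayes with trend) on log2(FPKM + 1), for the 2 groups compared or, for the strain difference in response, all 12 mice, with Benjamini-Hochberg adjustment over 13115 genes whose mean reached 0.5 FPKM. Intervals of ratios are exact 95% binomial intervals on pooled fragments and cover counting error only. With nothing stated on separate preparations, p-values measure only the spread between these mice. Coordinates came from GENCODE M21 on GRCm38.

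The members, gene lists and tests were chosen with earlier results of these data known. Named were the members, every list gene called in a comparison, the 3 most abundant genes of each list, and the 5 genes most like Mcpt8 and Prg2. The settings also tried were a filter at 1 FPKM or none, 0.1 FPKM as the pseudocount, TPM, quantile normalization, voom on the recovered fragments, the replicate number as a block and leaving out each mouse.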

Additional observations from a re-analysis of the deposited data

Results flagged for a closer look

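In 6 genes every treated mouse moved one way against the untreated mice in B6 and the other way in SLE123. The log2 difference of SLE123 minus that of B6 was -3.82 ± 0.26 (SE) for Mcpt8, -4.56 ± 0.39 for Prss34, -3.35 ± 0.39 for Prg2, -1.87 ± 0.31 for Fcer1a, -0.99 ± 0.18 for Cpa3 and -1.77 ± 0.29 for Epx. These genes were chosen for such a difference, so it was not tested. The share of all genes with such a pattern is not given, so the count of 6 cannot be set against it.

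A further 12 basophil and eosinophil genes differed between the strains in their treatment difference by the limma test of that difference. They came from lists drawn up with earlier results of these data known. The values were -3.16 for Fcer1g, -1.36 for Cyp11a1, -2.31 for Csf2rb, -1.37 for Csf2rb2, -2.62 for Cd63, -0.94 for Alox5, -3.19 for Alox5ap, -0.49 for Cd9, -1.16 for Ifitm1, -1.31 for Prg3, -2.41 for Ear2 and -2.03 for Ear6. Cd9 and Ifitm1 differed by 0.02 and 0.17 in SLE123, in the direction seen in B6. The other 10 had estimates of opposite sign in the 2 strains, but none of their SLE123 differences passed the limma test. The SLE123 groups overlapped for Cyp11a1 (-0.13 ± 0.13 SE), Alox5 (-0.14 ± 0.13), Csf2rb2 (-0.15 ± 0.18) and Csf2rb (-0.51 ± 0.32). In B6 the differences of Prg3 and Ear6 did not pass either. Prg3, Ear2 and Ear6 reached the filter on low levels only through untreated SLE123 mice, and without replicate 1 of the treated SLE123 mice 11 list genes passed. Groups of 3 mice were not examined for outlying samples.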

How the results depend on the processing

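Of 566 log2 differences of the 10 genes under the alternatives, 480 stayed within 1 SD of the value given, and the 3 that changed sign were all Cd200r3 in B6. The other 86 moved further, 28 with a pseudocount of 0.1, 31 with voom, 21 after TPM scaling and 0 on leaving out a mouse. Folds of means did move without replicate 3 of the untreated B6 mice. Ms4a2 went from 13.9 to 31.0 in B6 and from 19.4 to 43.3 between the untreated strains, and Epx from 5.58 to 9.28 and from 62.4 to 104. The counts over all genes in B6, 1948, went to 1134 with no filter and to between 675 and 1393 on leaving out 1 mouse, and the 15 list genes to 9 with a filter at 1 FPKM, where fewer genes were tested, and to between 8 and 12. In SLE123 the 5 genes went to 21 after TPM scaling, to 3 with voom and to between 1 and 7 on leaving out a mouse, and the list count of 0 to 3 after TPM scaling and to between 0 and 1. Between the untreated strains the count went from 5621 to 7888 after TPM scaling, to 6924 after quantile normalization and to between 3672 and 6469 on leaving out a mouse. For the difference between strains in response it went from 478 to between 205 and 2917 on leaving out a mouse. The cause of the other moves was not tested. TPM scaling shifted the median of all genes by 0.216 in SLE123, -0.379 between the untreated strains and 0.233 in the difference between strains.

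With the replicate number as a block, limma called 0 genes of B6 mice (2466 had an unadjusted p under 0.05), 0 list genes in B6 (15 unadjusted) and, for the difference between strains in response, 34 genes and 3 list genes (Alox5ap, Ear6 and Ifitm1). The treated and untreated B6 mice share only the numbers 3 and 5. The other B6 mice have no partner, so the block left little to estimate the spread from. The fall in B6 calls cannot be told apart from that loss. Same-numbered mice correlated at -0.14 and -0.094 in B6 and at 0.137, -0.161 and 0.266 in SLE123. Not every mouse correlated best with its own number. With so few mice, these values cannot decide whether the numbers pair the mice.

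Depth limits the low levels in untreated B6 mice, where Fcer1a, Prss34, Ms4a2 and Epx had as few as 1 or 2 fragments in a mouse. Folds over that group are imprecise, whatever the test.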
